A study of Drosophila melanogaster with 3 samples.

Results

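The 8 Hox genes of Drosophila melanogaster, lab, pb, Dfd, Scr, Antp, Ubx, abd-A and Abd-B, were examined for binding of D (Dichaete), a SoxB transcription factor with an HMG domain. The members were taken by name, all 8 of the fly, out of 13945 protein-coding genes in the annotation. The data came from chromatin immunoprecipitation with sequencing (ChIP-seq) in 3 biological replicates of a single group. Each replicate was whole embryos of both sexes, 0 to 14 hours old, from a transgenic line that stably expresses D with GFP at its C-terminal end, precipitated with an antibody to GFP. Whether the embryos also kept the native D gene is not given in the labels. Peaks were set against a control whose make-up is not given in the labels. There was no second condition, so the Hox genes are described beside other genes and beside all bound regions, without a test. Since the embryos were whole and of mixed ages, a peak is not tied here to a tissue or a stage.

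Hox genes encode homeodomain transcription factors that give each segment along the body axis its identity. In the fly they lie in 2 groups on arm 3R. The Antennapedia complex holds lab, pb, Dfd, Scr and Antp, which act in the head and thorax, and the bithorax complex holds Ubx, abd-A and Abd-B, which act in the posterior thorax and the abdomen. Long regulatory stretches between and within the genes drive them in their own segments, and Polycomb and Trithorax proteins keep these stretches off or on through development. D is known for roles in segmentation and in the nervous system and binds DNA with the HMG domain common to Sox proteins.

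Binding was read from the authors' list of 5047 reproducible peaks on dm6, filtered on the irreproducible discovery rate (IDR peaks), each with a summit, the base of highest signal. Peak height is the authors' own signal value, on a scale that is not stated, with a median of 310 over the list and a lowest value of 188. A gene was given a territory, its body with 2 kb added at either end. In all, 36 of the 5047 IDR summits lay in the 2 complexes, 21 in the Antennapedia complex and 15 in the bithorax complex. Of these, 17 fell in a Hox territory and 19 in none. Lists of 30000 regions, peaks and background together, exist for every replicate. Their median signal values were 28.2, 35.0 and 43.2 in replicates 1, 2 and 3, so replicates are set side by side by rank, where 1 is the highest. A summit was called recovered in a replicate if one of that replicate's 5047 highest summits lay within 200 bp of it.

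lab lies at 6661427 to 6678590 of 3R, pb at 6707800 to 6742063, Dfd at 6791836 to 6802428, Scr at 6823120 to 6849981 and Antp at 6896253 to 6999228. Some way along the arm follow Ubx at 16656623 to 16734426, abd-A at 16807214 to 16830049 and Abd-B at 16927212 to 16972236. All but Dfd are on the minus strand, so that their starts are at the right end.

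The bound sequences differed in make-up, and 7 of them are shown as examples. The motif counts given further below come instead from 201 bp windows at all 36 summits. The printed stretches are 151 bp around the summit, on the plus strand of Release 6 (dm6), taken from RefSeq. In the first 6, capitals mark the Sox core ACAAT or its reverse complement ATTGT. The highest summits of pb, Dfd and Abd-B each had 2 cores in this stretch, while those of Antp, of the interval from Ubx to abd-A and of the interval from Scr to Antp had none. The highest summits of lab and Ubx and the summit at Ama, which are not printed, had none either, so 3 of these 9 stretches held a core and 6 did not.
pb intron, chr3R:6723844-6723994: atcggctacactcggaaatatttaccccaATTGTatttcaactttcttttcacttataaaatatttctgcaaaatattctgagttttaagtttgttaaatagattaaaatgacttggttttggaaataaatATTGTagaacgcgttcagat
Dfd promoter, chr3R:6791447-6791597: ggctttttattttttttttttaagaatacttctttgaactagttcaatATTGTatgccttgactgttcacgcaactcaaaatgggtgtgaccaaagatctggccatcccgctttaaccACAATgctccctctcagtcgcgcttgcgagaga
Abd-B intron, chr3R:16958215-16958365: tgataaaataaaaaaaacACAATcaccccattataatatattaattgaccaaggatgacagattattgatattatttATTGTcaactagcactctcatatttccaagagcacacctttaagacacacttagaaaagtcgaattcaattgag
Antp intron, chr3R:6936258-6936408: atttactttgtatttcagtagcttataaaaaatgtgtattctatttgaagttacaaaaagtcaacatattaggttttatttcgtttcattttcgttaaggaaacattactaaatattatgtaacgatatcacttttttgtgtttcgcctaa
Ubx to abd-A, chr3R:16798802-16798952: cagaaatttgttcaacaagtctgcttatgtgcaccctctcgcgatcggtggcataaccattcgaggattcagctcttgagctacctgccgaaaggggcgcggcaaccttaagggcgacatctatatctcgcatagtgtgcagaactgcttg
Scr to Antp, chr3R:6881724-6881874: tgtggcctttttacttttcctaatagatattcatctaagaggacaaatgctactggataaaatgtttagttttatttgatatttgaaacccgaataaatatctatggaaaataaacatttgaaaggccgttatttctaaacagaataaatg
In the last, from the lncRNA gene that lies over mir-10 between Dfd and Scr, capitals mark GAGAG or CTCTC, the core bound by GAGA factor, which occurred 14 times with overlapping matches counted. This stretch was picked because it had the most such matches of the 36, where the next highest count was 5. Its summit also lies in a second non-coding gene, lncRNA:CR45915, 41 bp from the start of that gene.
lncRNA:CR42651, chr3R:6810785-6810935: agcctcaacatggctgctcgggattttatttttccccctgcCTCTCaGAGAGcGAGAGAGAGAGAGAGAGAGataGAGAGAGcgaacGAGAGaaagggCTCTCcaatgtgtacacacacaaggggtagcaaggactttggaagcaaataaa

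D peaks were found at 6 of the 8 Hox genes, and Scr and abd-A had none. Among all 13945 protein-coding genes, 30.4% had an IDR summit in their territory. Hox genes are long, with a median territory of 34563 bp, and among the 50 other genes nearest in territory length to each of them the share with a summit ran from 46.0% for Dfd to 72.0% for Antp. For the other 6 Hox genes that share lay between 62.0% and 70.0%, so the count of 6 of 8 is near what genes of such length showed.

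Antp, the gene of thoracic and leg identity, had the most summits, 7 over a territory of 106976 bp. Its 50 neighbours in length had a median of 3 and a highest count of 12, and 7 of the 50 had more than Antp. Next came lab, the most anterior Hox gene, with 4 summits in 21164 bp, where genes of like length had a median of 1 and 2 of 50 had more. A count of 2 was found at both pb, a gene of the mouthparts, and Abd-B, the most posterior Hox gene. The 2 summits of pb lay 202 bp apart and shared a single matching peak in each replicate. A count of 1 was found at both Dfd, a gene of the maxillary and mandibular segments, and Ubx. Ubx had a territory of 81804 bp, and 24 of its 50 neighbours in length had more than 1 summit. The 3 genes nearest to Antp in territory length, RhoGEF64C, Cph and Ir41a, had 2, 5 and 0 IDR summits.

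**Figure D1:**
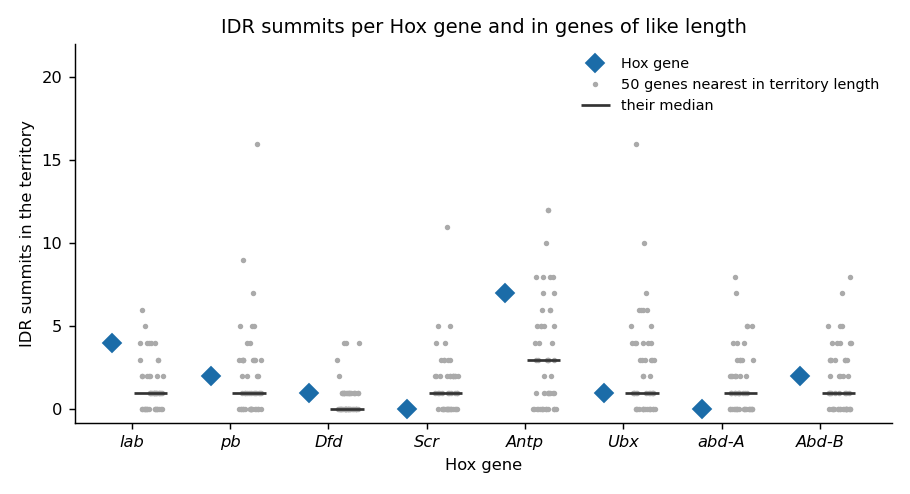
Number of IDR summits in the territory of each Hox gene (blue diamonds), with the counts of the 50 other protein-coding genes nearest in territory length to its right (grey points, spread sideways for sight) and their median (black line). Antp with 7 and lab with 4 stand above their medians of 3 and 1. Also above are pb and Abd-B, each with 2 against 1, and Dfd with 1 against 0. The 2 summits of pb lie 202 bp apart and share a single matching peak in each replicate. Counted as 1 region, pb would lie at its median. Ubx lies at its median of 1, and Scr and abd-A lie at 0, below their medians of 1.

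The heights of the peaks were moderate. Over the 36 summits the signal value ran from 194 to 845 with a median of 286, against a median of 310 and a highest value of 4534 over all IDR peaks. Among the upper 25.0% of all IDR peaks by signal were 7 of the 36, or 19.4%. The best placed ranked 461 of 5047. Summits in the territories had a median of 324, and those in none had 258.

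In the Antennapedia complex, lab carried 4 peaks, all in the first of the 2 introns of its canonical transcript. Their signal values were 223, 290, 281 and 245 in the order of the chromosome. The peak of 290, at 3R from 6667198 to 6667653, had signal values of 142 and 161 in replicates 2 and 3 (ranks 1843 and 1856), while replicate 1 had no matching region. The peak of 281 had 56.5, 80.4 and 134 in replicates 1, 2 and 3, and ranked 2167, 4418 and 2531. The peak of 245 ranked 3694, 3302 and 4346. Those 2 were recovered in all 3 replicates. The peak of 223 was recovered in replicate 2 alone, at rank 1998, and ranked 15919 in replicate 1 and 7027 in replicate 3. It lay 2014 bp upstream of the second annotated start of lab, nearer to a start than the others.

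At pb, both summits lay 202 bp apart in the third of 8 introns, 18144 and 17942 bp from the start site. The higher had a signal value of 399 and the other 194. Each replicate had a single matching peak for both, which ranked 1053 in replicate 1, 2162 in replicate 2 and 1461 in replicate 3, so the pair counts in the replicates as 1 region.

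Dfd alone among the Hox genes had a promoter peak, with its summit 314 bp upstream of the start, at 3R from 6791294 to 6791749. Its signal value was 208. Replicate 1 had no matching region, while the peak had 96.1 in replicate 2 and 95.6 in replicate 3 and ranked 3359 and 4400. The call at Dfd thus rests on replicates 2 and 3.

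Antp held the most peaks among the Hox genes. The highest, with a signal value of 697, lay in an intron 3493 bp upstream of the start site at 6932840, which is the nearest of 3 annotated for the gene. It had 103, 315 and 277 in replicates 1, 2 and 3, and ranked 960, 433 and 711. A group of 3 summits with signal values of 589, 536 and 483 lay within 2 kb of each other, between 6912592 and 6914508. The summits at 589 and 536 share their matching peak in replicates 2 and 3, which ranked 813 and 910, and have separate ones in replicate 1, which ranked 579 and 1351. A peak of 516 ranked 853, 1298 and 1076, and one of 324 ranked 883, 2285 and 4646. The last, of 233, lay 7169 bp downstream of the distal start site. It ranked 4452 and 2361 in replicates 2 and 3, and replicate 1 lacked it. In all, 6 of the 7 were recovered in every replicate. Antp overlaps a second annotated protein-coding gene, CG46458, and 6 of the 7 summits lie in both.

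**Figure D2:**
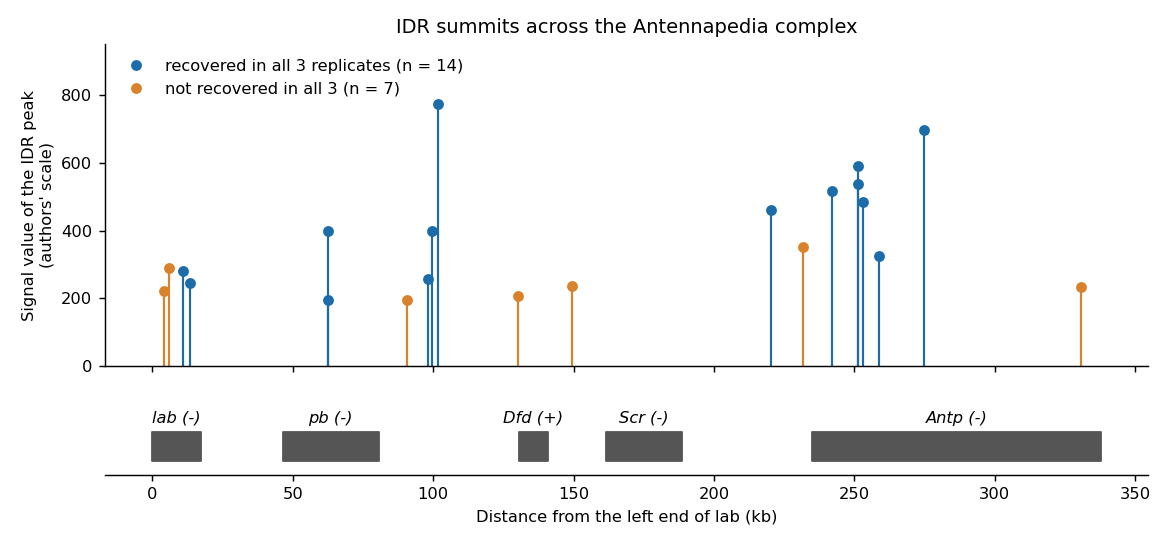
Signal value of the IDR peaks (y axis, authors' scale) across the Antennapedia complex, by distance in kb from the left end of lab. Grey bars below are the Hox genes with their strand. The 14 summits recovered in all 3 replicates are blue and the other 7 orange, and the stretch over Scr is without a summit.

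Scr, a gene of the labial and first thoracic segments, lay in the longest stretch of the Antennapedia complex without an IDR summit, 70939 bp from 6810860 to 6881799. The nearest summit lay 12260 bp from the gene, with a signal value of 237. Its promoter did appear in the longer list of the pooled replicates. There, a summit 46 bp from a start of Scr had a signal value of 151 and ranked 6666, below the 5047 of the IDR list. It had 91.5 in replicate 2 and 80.5 in replicate 3 (ranks 3618 and 5782), and replicate 1 lacked it.

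Between the genes of the Antennapedia complex, peaks clustered around the homeobox genes zen and bcd and the neighbouring Ama. These lie between pb and Dfd, an interval of 49772 bp with 5 summits, the Dfd promoter summit among them. The highest peak of the complex, with a signal value of 773, lay in Ama, which encodes a secreted immunoglobulin-domain protein, 349 bp from its start site. It ranked 417, 760 and 423 in the 3 replicates. Peaks of 400 and 257 lay 1447 and 164 bp from the start site of bcd, the maternal gene of the anterior gradient, and ranked 1240, 2045 and 1639, and 1642, 4003 and 4610. Near zen, a gene of the amnioserosa, a peak of 195 was recovered in replicates 1 and 2 but ranked 7214 in replicate 3. Of the non-Hox genes in the complex, ftz, a pair-rule gene, and zen2 had no IDR summit in their territories.

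Between lab and pb, where a run of cuticle protein genes lies, there was no IDR summit in 29209 bp. Between Dfd and Scr there was 1, in the lncRNA gene lncRNA:CR42651 that also spans mir-10, a microRNA of the complex. This summit lay in lncRNA:CR45915 too, 41 bp from the start of that gene. The peak had a signal value of 237 and ranked 2971 and 3122 in replicates 2 and 3 but was not found in replicate 1. This is the sequence with 14 GAGAG matches printed above. Between Scr and Antp, a peak of 461 in lncRNA:CR44931 ranked 1189, 1476 and 1131, while one of 351 in lncRNA:CR45559 ranked 1057 and 1792 in replicates 2 and 3 and was not found in replicate 1.

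The bithorax complex had fewer summits in its genes and more between them. Ubx, which sets the identity of the third thoracic segment, held 1, in the second of 3 introns, 16331 bp from the start site. It had a signal value of 275 in the IDR list, had 50.5, 101 and 117 in replicates 1, 2 and 3, and ranked 2640, 3123 and 3151. To its left, toward the end of the gene, 61472 bp had no IDR summit. Abd-B held 2 in introns. The higher, at 793, lay at 3R from 16958282 to 16958501 and 1991 bp from a start site. It had 170, 259 and 352 in replicates 1, 2 and 3 and ranked 462, 654 and 438, so all 3 replicates placed it among their highest 1000 regions. The other, at 427, lay 1485 bp from another of the 6 annotated start sites of Abd-B and ranked 1832, 2145 and 1291.

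The interval from Ubx to abd-A held 7 summits in 72787 bp, or 9.62 per 100 kb. The interval from pb to Dfd was denser, at 10 per 100 kb. That from abd-A to Abd-B had 5.15, that from Dfd to Scr 4.83, that from Scr to Antp 4.32 and that from lab to pb 0. The Antennapedia complex as a whole had 6.22 and the bithorax complex 4.75, against 3.68 for arm 3R. The value for the arm is over its full 32079331 bp, with no stretch left out, and the difference was not tested. Between Ubx and abd-A lies the highest peak of both complexes, with a signal value of 845, at 3R from 16798736 to 16799019. It had 289, 278 and 265 in replicates 1, 2 and 3, and ranked 169, 571 and 775. It lay outside annotated genes, 1723 bp from the start of lncRNA:CR45750 and 29228 bp from the nearest Hox start site, that of abd-A. A neighbour at 385 ranked 936, 2259 and 2218. Another, at 234 and inside lncRNA:CR45750, ranked 5068, 3353 and 3306, just outside the highest 5047 in replicate 1. The other 4 lay in lncRNA:bxd, the non-coding gene of the bithoraxoid region upstream of Ubx, with signal values of 200, 266, 221 and 258. Of these, 1 was recovered in all 3 replicates.

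abd-A, which patterns the abdomen, was without an IDR summit. The nearest one lay 4785 bp upstream of its start, with a signal value of 313. Within the territory, a pooled-list peak in an intron had a signal value of 184 and ranked 5167, just under the end of the IDR list. The replicates differed on it. It had 49.3 in replicate 2 and 150 in replicate 3 (ranks 9199 and 2113), and replicate 1 lacked it. Between abd-A and Abd-B, 5 summits lay in the span of lncRNA:iab8, a long non-coding gene of this region that also gives rise to the microRNA mir-iab-8. Their signal values were 313, 296, 214, 211 and 218. The first 3 were recovered in every replicate and also lie in MSAmiP, annotated as coding. The peak of 211 was matched within 200 bp in replicate 3 alone, although replicate 2 had a peak with its summit at 16899867, 220 bp away, that ranked 3253.

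**Figure D3:**
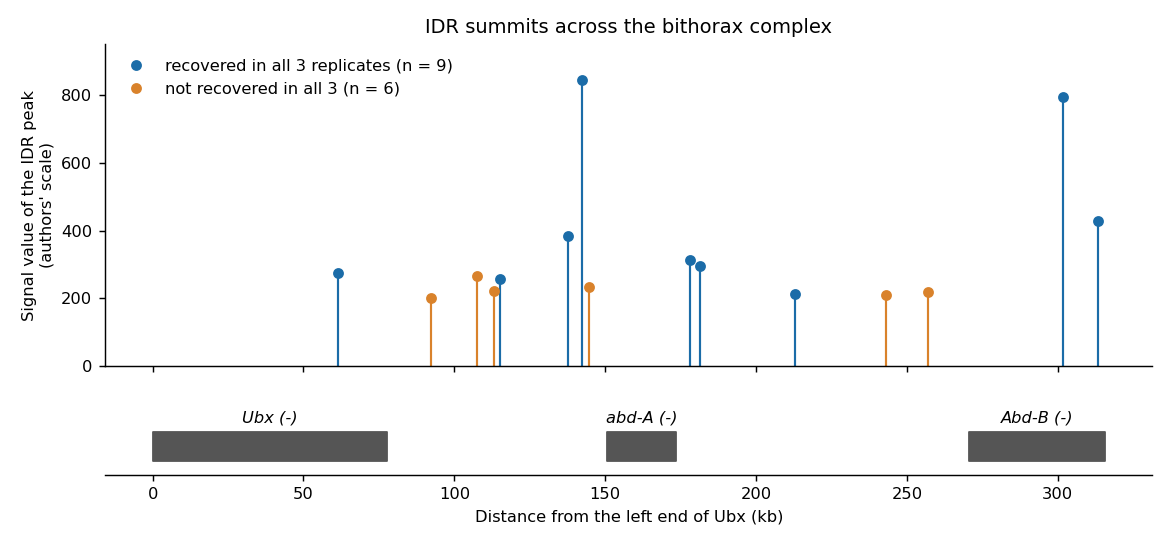
Signal value of the IDR peaks (y axis, authors' scale) across the bithorax complex, by distance in kb from the left end of Ubx. Grey bars below are the Hox genes with their strand. The 9 summits recovered in all 3 replicates are blue and the other 6 orange, the peak of 845 stands between Ubx and abd-A, and no summit lies over abd-A.

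Over both complexes, 15 of the 36 summits lay in an annotated lncRNA gene, 14 of them outside the Hox territories. Few were at promoters of protein-coding genes. Within 500 bp of a protein-coding start lay 3 of the 36, at Dfd, bcd and Ama, while 34.8% of all 5047 IDR summits did so. Starts of non-coding genes were also within 500 bp of some summits. Such starts lay 41 bp from the summit in lncRNA:CR42651 and 173 bp from that in lncRNA:CR45559. Others lay 159 bp from the summit in lncRNA:CR45750 and 185 bp from that of 211 in lncRNA:iab8. The Ama summit was 423 bp from the start of lncRNA:CR45593. Introns of protein-coding genes held 19, and 14 lay between protein-coding genes. Of these 14, 10 lay inside an annotated lncRNA gene and 4 in no annotated gene. The shares of all 5047 IDR summits at non-coding starts, in lncRNA genes, in introns and between genes are not given here. The counts for these classes are therefore not read as a trait of the Hox complexes. None of the start sites of lab, pb, Scr, Antp, Ubx or abd-A had an IDR summit within 2 kb, and 2 of the 6 of Abd-B did. One start of lab missed this limit narrowly, at 2014 bp. The share of all protein-coding start sites with a summit within 2 kb is not given here. This count is therefore not read as a trait of the Hox genes either.

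Recovery was lower in replicate 1 than in the other replicates. Replicate 1 recovered 26 of the 36 summits, or 72.2% (exact Clopper-Pearson 95% interval 54.8 to 85.8, for counting error only), against 2524 of all 5047 IDR summits (50%). Replicate 2 recovered 35 of 36, against 85.2% of all, and replicate 3 recovered 32, against 83.9%. All 3 recovered 23, or 63.9% (interval 46.2 to 79.2), against 38.5% of all. In the Hox territories this was 13 of 17, and outside them 10 of 19. A further 8 were missed by replicate 1 alone. The summits share their replicates, and those of pb and one pair of Antp share matching peaks, so they are not independent.

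**Figure D4:**
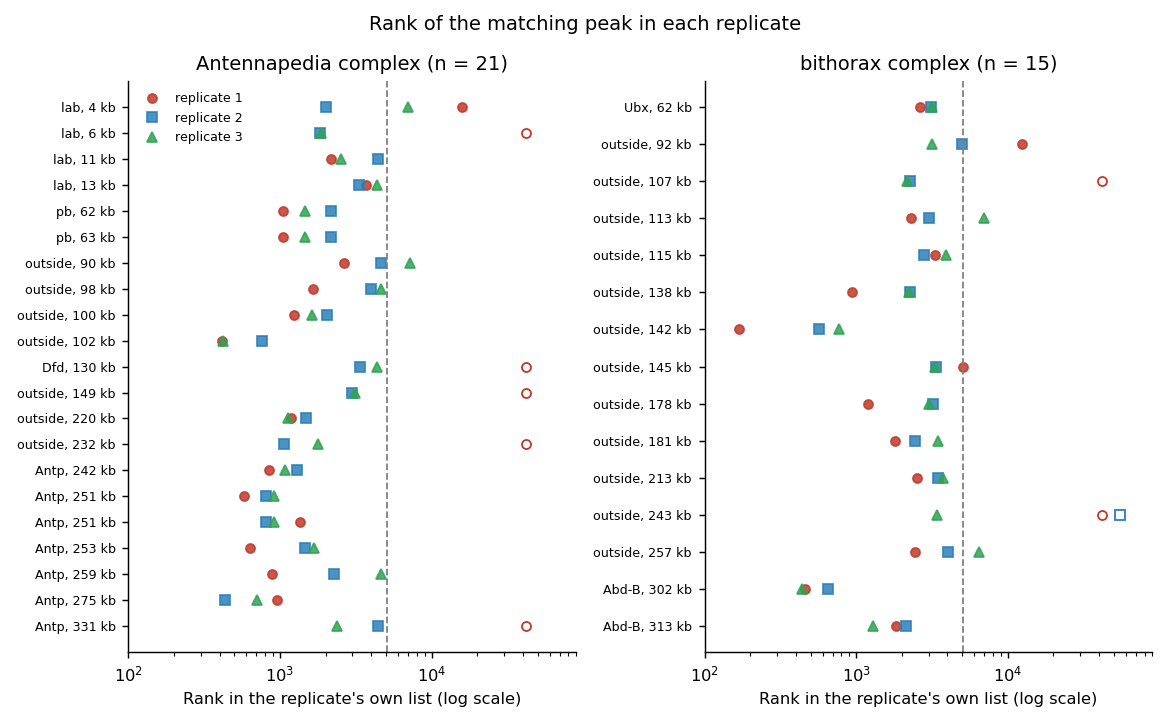
Rank of the matching peak within 200 bp in each replicate's list of 30000 regions (log scale, low rank meaning high signal) for the 36 summits, in chromosome order from top to bottom, named by Hox territory and by distance in kb from the left end of the complex. Open symbols at the right edge have no match (7 in replicate 1, 1 in replicate 2, none in replicate 3), and the dashed line is rank 5047.

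Counted from each replicate's own 5047 highest summits, and so without the IDR list, more of the Hox genes held a summit. All 8 Hox genes held such a summit in replicate 1, 7 in replicate 2 and 7 in replicate 3. Among all protein-coding genes these shares were 21.5%, 31.1% and 30.1%. The shares among genes of like territory length are not given for the replicates. Over the whole lists, 49.8% of these highest summits in replicate 1, 14.1% in replicate 2 and 14.9% in replicate 3 had no IDR summit within 200 bp. Antp held 11, 8 and 7 summits in replicates 1, 2 and 3. Ubx held 6, 2 and 2, Abd-B 4, 2 and 3, and lab 2, 4 and 3. At pb there were 2, 1 and 1, and at Dfd 1 in each. Scr held 1, 1 and 0 and abd-A 1, 0 and 1. The same count need not be the same region. At Dfd, replicate 1 had a summit at 6799197 inside the gene, of 41.6 and rank 4127, and the promoter peak was found in replicates 2 and 3. The Scr region of replicate 1, of 42.3 and rank 3938, was in neither of the other replicates' lists, and that of Dfd likewise. The abd-A region of replicate 1, of 39.3 and rank 4903, ranked 22303 in replicate 2 and 12422 in replicate 3.

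The Sox core was present near most of the summits, and how it compared with other bound regions turned on the window. Within 100 bp of the summit, ACAAT or ATTGT was present in 25 of 36 windows, or 69.4% (interval 51.9 to 83.7), against 52.1% of all IDR summits and 49.0% of 22054 lower summits of the pooled list that lay more than 1 kb from every IDR summit. The interval of 51.9 to 83.7 contains the 52.1% of all IDR summits, and not the 49.0% of the lower summits. The lower summits also differ in base content, with a median GC of 40.3% against 34.1% in the Hox windows. The shares were not adjusted for this. Within 50 bp, the order turned round, with 9 of 36 or 25.0%, against 32.0% of all IDR summits. By gene, 4 of 7 windows at Antp had a core, 3 of 4 at lab, both at pb, both at Abd-B, that at Dfd and not that at Ubx. Of the 4 highest peaks of the complexes, with signal values of 697 or more, only that of Abd-B had a core. It had 2, and the centre of the nearer lay 4 bp from the summit. The longer form ACAATG or CATTGT was present in 3 windows, or 8.33%, against 13.3% of all IDR summits, and ACAAAG or CTTTGT in 6, or 16.7%, against 16.3%.

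Motifs of other factors of these loci were counted in the same windows on both strands. GCCAT or ATGGC, the core bound by Pho, the DNA-binding protein of the Polycomb group, was present in 15 windows, or 41.7% (interval 25.5 to 59.2), against 25.1% of all IDR summits and 34.3% of the summits below the threshold. GAGAG or CTCTC was present in 30.6%, against 23.0%, and the palindrome TAATTA, a homeodomain site, in 27.8%, against 18.0%. In both cases the interval of the Hox windows, 16.3 to 48.1 and 14.2 to 45.2, contains the share of all IDR summits. TGATNNAT or ATNNATCA, a site for Exd with a Hox protein, was present in 11.1%, against 15.7%, and CAGGTA or TACCTG, the core of the Zelda site, in 8.33%, against 3.88%. The POU octamer ATGCAAAT or ATTTGCAT was in none of the 36, which allows a share of up to 9.74% (exact interval), and was in 3.13% of all IDR summits. ACAATG contains ACAAT, so those counts overlap. The median GC content of the 201 bp was 34.1% in the Hox complexes, 34.3% over all IDR summits and 40.3% over the summits below the threshold. A match is only a run of letters and does not show which factor was bound.

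**Figure D5:**
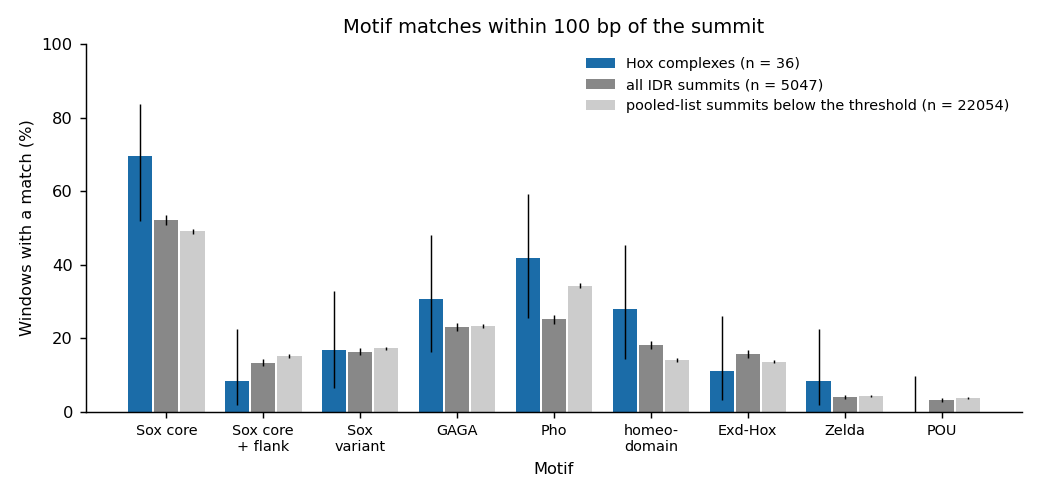
Percentage of 201 bp windows around the summit with at least 1 match on either strand, for the 36 summits of the Hox complexes (blue), all 5047 IDR summits (dark grey) and 22054 pooled-list summits below the threshold (light grey), with exact 95% binomial intervals. The Sox core stands at 69.4% in the Hox complexes, with an interval of 51.9 to 83.7 that contains the 52.1% over all IDR summits. Most intervals of the 36 windows are wide.

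Other genes that act with the Hox genes were bound to a differing extent. The counts below stand beside the 30.4% of all protein-coding genes with an IDR summit, and the lists differ in length of territory. Of 6 genes of cofactors and partners, 3 had an IDR summit. hth, which encodes a homeodomain cofactor that brings Exd to the nucleus, had 11 with a highest signal value of 695 over a territory of 136008 bp. disco-r, a zinc finger gene, had 1 with 728, and tsh, a zinc finger gene of the trunk, had 1 with 260. The cofactor gene exd, disco and tio had none. Of 9 genes known as targets of Hox proteins, 8 had a summit. By each replicate's own 5047 highest summits, 5, 9 and 8 of the 9 held one in replicates 1, 2 and 3. The highest values were 1213 at fkh, a target of Scr in the salivary gland, 1209 at otp, 468 at dpp, a target of Ubx in the midgut, and 391 at CrebA. Dll, a limb gene that Ubx and abd-A repress, had no IDR summit, and the highest pooled-list peak in its territory ranked 14411. Replicates 2 and 3 each placed 1 of their 5047 highest summits in the territory of Dll, and replicate 1 placed none there. Of 10 pair-rule genes, the genes that act before the Hox genes in the segmentation cascade, 4 had a summit, led by slp1 at 647, ftz-f1 at 415, slp2 at 350 and opa at 303. The 6 others were eve, ftz, h, run, odd and prd. Of 11 segment polarity genes, 5 had one, led by nkd at 865, ptc at 532, gsb-n at 202 and wg at 195. Those without were inv, hh, gsb, arm, ci and smo. Of the bound genes named in this paragraph, tsh, CrebA, opa, ftz-f1, ptc, gsb-n and wg had no summit recovered in all 3 replicates. The lists overlap, since opa is counted both as a target and as a pair-rule gene, and wg both as a target and as a segment polarity gene. The median territory was 34563 bp for the Hox genes, 11473 bp for the cofactors and partners, 21167 bp for the targets, 6683 bp for the pair-rule genes and 13332 bp for the segment polarity genes. The counts of 6 of 8 Hox genes, 3 of 6, 8 of 9, 4 of 10 and 5 of 11 are thus not on equal lengths, and no difference between the lists was tested.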

How the data were processed

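The authors' deposited lists come from 3 biological replicates of D-GFP ChIP-seq, sheared by sonication per the labels. The file lists record peaks with background for single and pooled replicates, set against a control, and an IDR list derived from them. Aligner, peak caller and IDR threshold: not given in the sources used here. Peaks were ranked by the authors' deposited signal value (column 7), whose scale is unstated. The deposited −log10 q values (column 9) served only to count regions at their highest value. Depth is unknown. The dm3 lists were not used here.

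Summits were placed on Release 6 (dm6) with Ensembl release 115. The pair-rule gene h was matched through its current symbol. Introns are numbered on the canonical transcript, and starts are taken from every protein-coding transcript. Coordinates are 1-based. Motifs were counted on both strands within 100 bp of a summit, with exact (Clopper-Pearson) 95% intervals. The work used Python (3.11.15), numpy (2.4.6), pandas (2.3.3), scipy (1.17.1) and matplotlib (3.10.9). Matching and counting were tested on simulated data.

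Members, gene lists, motifs and alternatives were chosen with earlier results of these data known. Named genes are the Hox genes, genes at or nearest to their summits, neighbours in the complexes, unbound list members, in each list the 4 of highest signal, and the 3 genes nearest to Antp in territory length. Alternatives were other territories, nearest start site, the upper 50% of peaks, the whole pooled list, peaks recovered in all 3 replicates, other match distances and windows, and leaving out each replicate. All samples form 1 group, so no test between groups was made.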

Additional observations from a re-analysis of the deposited data

How the results depend on the processing

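No peak list was remade, so a replicate was left out by keeping the IDR peaks that the other replicates both recovered. The count of 6 bound Hox genes was then 5 to 6, and Dfd was lost without replicate 2 or 3. It was 5 by gene body, 7 with a margin of 5 kb or by nearest start site (abd-A entering) and 8 in the whole pooled list. Among the upper 50% of peaks it was 3, as lab, Dfd and Ubx left. The 17 summits in territories became 13 to 16 with a replicate left out, 9 in the upper 50% and 122 in the whole pooled list, which includes background regions. The 20 summits between the genes, counted outside gene bodies, became 10 to 16 with a replicate left out, 10 with recovery in all 3, 7 in the upper 50% and 107 in the whole pooled list. The 4 summits of lab became 2 without replicate 2 or without replicate 3. The 23 summits recovered in all 3 replicates became 19 with matches within 100 bp, 29 with whole replicate lists and 15 in the upper 50%, and 23 to 31 with a replicate left out. The Sox core share of 69.4% became 64.5 to 73.1% with a replicate left out, 25.0% within 50 bp of the summit, 80.6% within 250 bp (81.0% of all IDR summits) and 8.33% for the longer form. Each setting keeps fewer or more peaks, or letters, by construction, and other causes were not tested. No paired analysis was possible because there is 1 group.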

Other observations

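Each replicate also placed regions of the Hox complexes among its 5047 highest that had no IDR summit within 200 bp. Replicate 1 had 24 of 49 such regions, replicate 2 had 5 of 38 and replicate 3 had 7 of 39, while over the whole lists the shares without an IDR summit were 49.8%, 14.1% and 14.9%. In replicate 1 the highest of these lay in Ubx at 16726048, with a signal value of 59.5 and rank 1996, and ranked 12668 in the pooled list. It was in neither of the other replicates' lists. A region 1760 bp upstream of the distal start site of Antp, with its pooled summit at 7000988, ranked 2782 in replicate 2 and 2770 in replicate 3. It had no match in replicate 1, and its pooled rank of 5064 lies just under the end of the IDR list. A region of Ubx at 16702959 in replicate 2 and at 16702891 in replicate 3 ranked 2913 and 4599, and 6261 in the pooled list.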
